A study of Mus musculus with 96 samples.

Results

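Contacts of a viewpoint inside the Camta1 gene of mouse chromosome 4 were compared between an intact C57Bl/6J chromosome whose homologue carries the 4E2 deletion and the C57Bl/6J chromosome of control cells. The members were the 4 C57Bl/6J count files of viewpoint 4, out of 96 allele-specific samples at 12 viewpoints, and were chosen by their names. All cells were mouse embryonic fibroblasts (MEFs) grown from F1 embryos of the strains 129S5/SvEvBrd and C57Bl/6J. Embryos with the deletion came from 129S5/SvEvBrd male chimeras crossed with C57Bl/6J females. For the controls the paper names F1 crosses of the same strains without further detail. The lines are named 129S5E71, 129S5E98, 129S5E117 and 129S5E118, and are called E71, E98, E117 and E118 here. Lines E71 and E98 carried an engineered 4.32 Mb deletion on the 129S5 copy of chromosome 4, called Df, and their intact C57Bl/6J copy is called +DBl6. Lines E117 and E118 were undeleted F1 controls with a +129 and a +Bl6 copy. Each line is 1 MEF culture. The +DBl6 copy is intact, but its cells hold a single copy of the 47 protein-coding genes of the interval, which ran from 150090532 to 154411694 on chromosome 4 (mm9) and contained the viewpoint.

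PE-4Cseq is a chromosome conformation capture assay. Chromatin is crosslinked, cut with the restriction enzyme HindIII and religated, and the DNA joined to a chosen fragment, the viewpoint, is amplified and sequenced from both ends. The first read covers a strain polymorphism beside the viewpoint and gives the allele, and the second read gives the contacted HindIII site. Read density around a viewpoint falls with distance along the chromosome and drops more steeply at the border of a contact domain. Camta1 encodes a calmodulin-binding transcription activator that is best known for its role in neurons.

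The viewpoint is defined by its primers, shown because they fix the point from which all distances were measured. Both mapped to chromosome 4 of the NCBIM37 (mm9) reference. The HindIII-side primer lay at chr4:150984309-150984328 on the minus strand, 3 bases from the site at chr4:150984300-150984305. The primer of the polymorphism read lay at chr4:150984538-150984558 on the plus strand.
HindIII-side primer: ataaacgcactcaggcaagg
polymorphism-side primer: aggttagggtccgctgcttag

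The site lies in an intron of Camta1, which is transcribed from the minus strand and spans chr4:150433633-151235985 (802.4 kb). The HindIII fragment that holds both primers runs from 150984306 to 150987805 (3500 bp). The fragment named in the rule of selection, from 150987806 to 150990617 (2812 bp), is its neighbour, and the site at its far end held the most reads in the summed +DBl6 library and in line E118. In the libraries of line E117 the site at 150987805 held the most. Upstream here means towards lower coordinates, which is the 3′ part of Camta1, and downstream means towards the telomere, which is the 5′ part of the gene. The 30 reference bases that start at the viewpoint site and at these other sites, read in the direction of rising coordinates with the HindIII site in capitals, are as follows.
viewpoint site, 150984300: AAGCTTtccccttgcctgagtgcgtttatg
end of the viewpoint fragment, 150987800: AAGCTTaaggagagaagaggtattcccact
site with the most reads, 150990612: AAGCTTgcttgtttaggcagcaggcaaatg

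The +DBl6 libraries held 419732 reads on 2767 captured sites in line E71 and 398121 reads on 2539 captured sites in line E98, where a captured site is a HindIII site with at least 1 read. The +Bl6 libraries held 316500 reads on 4853 captured sites in E117 and 278102 on 4761 in E118. Beyond 2 Mb the +DBl6 libraries shared 1648 captured sites, which was 77.19% of those of E71 and 85.88% of those of E98, and their log reads at shared sites correlated at 0.9387. The +Bl6 libraries shared 1100 sites (26.93% and 27.3%), with a correlation of 0.1627. The +DBl6 files thus shared captured molecules and were summed into 1 library of 817853 reads on 3076 captured sites, so that +DBl6 has no measured spread between lines. The 2 libraries before summing are given beside the sum only to show how close they were. Reads within 20 kb of the viewpoint site (14.861% of +DBl6, 10.335% and 11.001% of +Bl6) were left out, and RPM means the reads of a site or window per 1000000 reads of the rest. A difference of 1 library from 2 has an exact permutation p of at least 0.333, so no single value below could pass a threshold by that test. The +129 libraries of E117 and E118 are given as further controls, on the other strain's chromosome. They come from the same cultures as the +Bl6 libraries, so all control libraries together stand for 2 lines. Beyond 2 Mb +Bl6 and +129 of E117 shared 1599 captured sites (39.14% and 39.97%), with a correlation of log reads of -0.3281. Those of E118 shared 1862 (46.21% and 47.21%), with a correlation of -0.289.

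The local contacts formed a plateau over the whole of Camta1 in every library. The 11 windows of 80 kb that overlap the gene held 40351 to 84425 RPM each in +DBl6, with a median of 64564. In +Bl6 they held 26259 to 82463 (median 54710) in E117 and 28347 to 93989 (median 56261) in E118. The next 3 windows upstream averaged 3670 RPM in +DBl6, 4026 in E117 and 3705 in E118. The next 3 windows downstream averaged 6449, 7257 and 6141 RPM. The median over the gene was therefore 17.59, 13.59 and 15.19 times the upstream level, and 10.01, 7.539 and 9.161 times the downstream level. Camta1 outside the 20 kb zone took 67.83% of +DBl6 reads, against 58.78% and 62.62% in +Bl6 and 55.83% and 61.43% in +129. The +DBl6 share lay above all 4 control libraries, and E117 lay below E118 on both chromosomes.

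**Figure D1:**
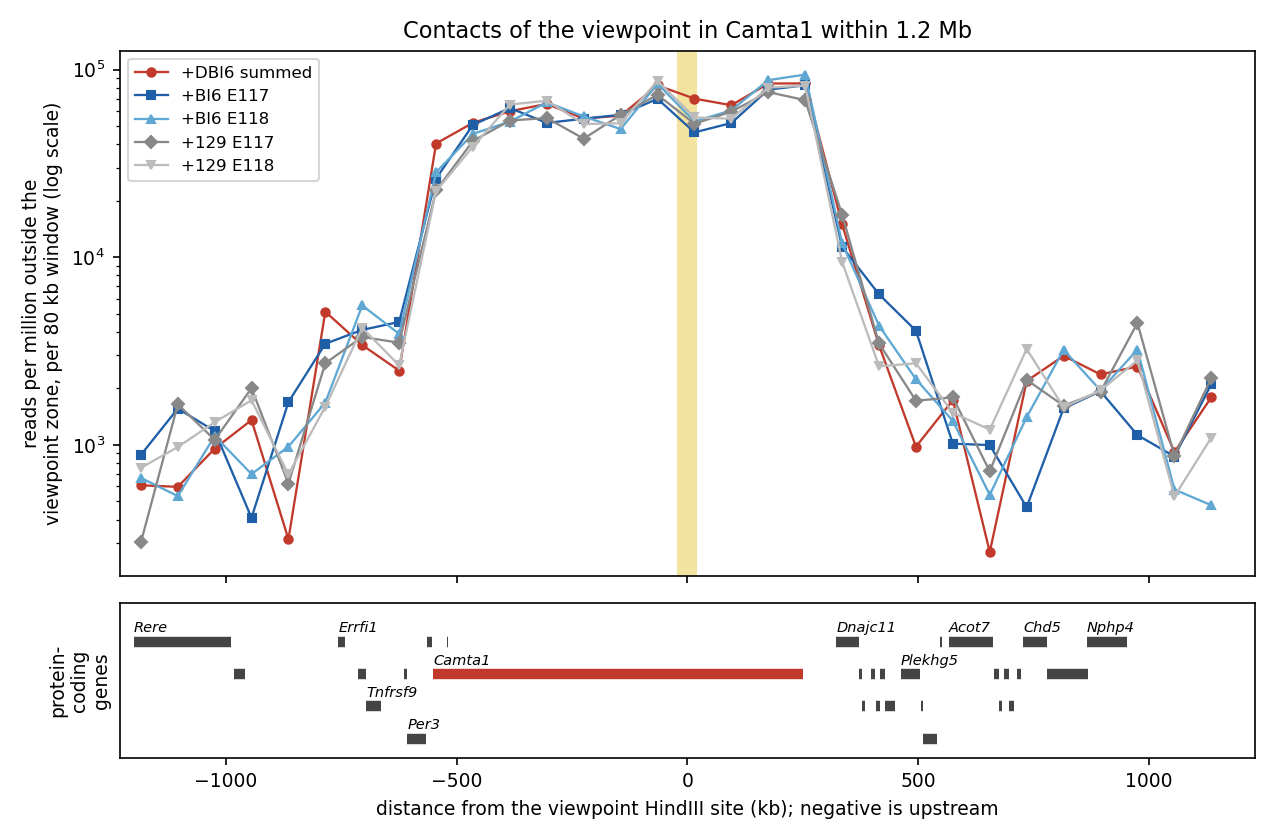
RPM outside the viewpoint zone in each 80 kb window (log scale) against the distance of the window's centre from the viewpoint site, for the summed +DBl6 library, both +Bl6 and both +129 libraries, with protein-coding genes drawn to scale below (Camta1 in red) and the 20 kb zone on either side of the viewpoint shaded. In all 5 libraries the level is high over Camta1 and drops at both ends of the gene.

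The 10 windows with the highest mean RPM all lay over Camta1. The highest, chr4:151200001-151280000 at the 5′ end of the gene, held 84425 RPM in +DBl6, 82463 in E117 and 93989 in E118. The window that holds the viewpoint, chr4:150960001-151040000, held 69990 RPM in +DBl6, 46260 in E117 and 52911 in E118, with 51427 and 55588 in +129. Its site at 151013772 alone gave 28596, 9722 and 16937 RPM of these, with 10643 and 14997 in +129, so much of the excess lay on that site. The window over the 3′ end of Camta1, chr4:150400001-150480000, which also overlaps Vamp3 and Per3, held 40351 RPM in +DBl6, 26259 in E117 and 28347 in E118, with 22715 and 22491 in +129. In both of these windows +DBl6 lay above every control library. In 4 of the 11 windows +DBl6 lay above both +Bl6 libraries, in 7 between them and in 0 below both, while over all 815 windows tested 25.3% lay above both and 48% below both. A window was tested if it held 10 or more reads in 3 of 5 libraries, of which 4 were controls, so a window read mainly in the controls could enter and a window read only in +DBl6 could not. Those background shares are therefore partly set by the filter.

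These windows were tested with edgeR's quasi-likelihood test on the raw reads of the summed +DBl6, both +Bl6 and both +129 libraries, with Benjamini-Hochberg adjustment over all 815 windows. The test called 0.245% of all windows (2 of 815), and 0 of the 11 windows over Camta1, where DESeq2 called 1. In 4 of the 11 the unadjusted edgeR p was under 0.05, all higher in +DBl6, against 15.3% of all windows in either direction and 3.31% in the higher direction. The viewpoint's window had a log2 fold change of 0.89 (SE 0.24, edgeR adjusted p 0.171), and the 3′ end window 0.95 (SE 0.29, adjusted p 0.248). All 11 fitted log2 fold changes were above 0, from 0.325 to 0.955, but this direction depends on the scaling. DESeq2 called the 3′ end window (adjusted p 0.0358). edgeR called the viewpoint's window without +Bl6 of E118 (adjusted p 0.0203) and with no minimum beyond 1 read (adjusted p 0.0282). With E71 and E98 kept as separate libraries edgeR called both windows (adjusted p 0.0443 for the 3′ end and 0.0487 for the viewpoint), and with the purification batch as a replicate block the values were 0.00953 and 0.004. Those last fits count shared molecules as replicates. TMM scaling raised +DBl6 by 0.398 on the log2 scale relative to +Bl6, and with total reads 9 of the 11 log2 ratios were above 0 and 2 below, from -0.0635 to 0.564.

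The ends of the domain differed in sharpness. Reads in the 100 kb inside the 3′ end of Camta1 were 8.477 times those in the 100 kb outside it in +DBl6, against 4.764 and 4.534 times in +Bl6 and 3.564 and 3.765 times in +129. This ratio needs no scaling between libraries. Both sides contributed. Inside, +DBl6 held 63747 RPM against 45731 and 43631 in +Bl6, and outside it held 7520 against 9599 and 9624. At the 5′ end the ratio was 3.074 in +DBl6, 2.359 and 2.409 in +Bl6, and 1.989 and 2.717 in +129. The +DBl6 ratio lay above all 4 control values at both ends, and the gap was wider at the 3′ end. The fall did not start at the annotated 5′ end itself, since the first 20 kb beyond it still held 21500 RPM in +DBl6 and 26632 and 30957 RPM in +Bl6, and the next 20 kb 6081, 8605 and 9891.

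**Figure D2:**
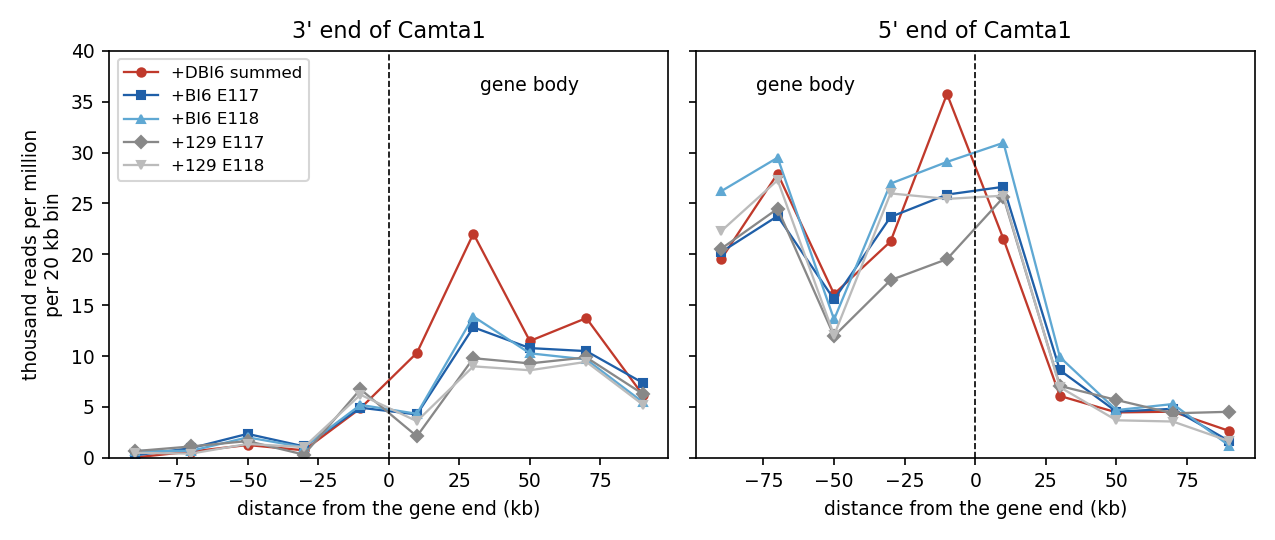
RPM divided by 1000 in 20 kb bins against the distance from the 3′ end (left panel) and the 5′ end (right panel) of Camta1, for the same 5 libraries, with the gene end at the dashed line. In the 20 to 40 kb bin inside the 3′ end +DBl6 stands at 22027 RPM and the 4 controls between 8990 and 13886, while at the 5′ end the libraries lie closer together.

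The difference at the 3′ end was uneven from site to site. Of the 15 sites in the first 40 kb inside it, +DBl6 lay above both +Bl6 libraries at 7, below both at 2 and between them (or level at 0) at 6. The site at 150468805 held 5506 RPM in +DBl6 (3834 reads), 243.1 in E117 (69 reads) and 1547 in E118 (383 reads). The site at 150444122 held 3170 RPM in +DBl6, 3.524 in E117 (1 read) and 1059 in E118. The site at 150455836 held 5406, 3013 and 2073 RPM. At the first pair of these sites the +Bl6 libraries differed from each other by a larger factor than +DBl6 differed from E118. In the 40 kb outside the 3′ end +DBl6 was above both at 1 of 8 sites and below both at 3. Of all 240 sites within 500 kb, +DBl6 lay above both at 70, below both at 73 and between at 97.

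The strongest single contacts outside the zone were also in Camta1. Downstream the leading site, in an exon of the gene, held 28596 RPM in +DBl6, 9722 in E117 and 16937 in E118, with 10643 and 14997 in +129. Next came a site 241.6 kb downstream in an intron, with 17277, 16903 and 16573 RPM, where the 3 C57Bl/6J libraries were nearly level. Upstream the site at -39.3 kb held 16979, 11195 and 13563 RPM, and that at -25.9 kb held 16915, 14292 and 14606. Farther upstream, the site at -270.6 kb held 12003 RPM in +DBl6, 11935 in E117 and 17474 in E118, and that at -331.9 kb held 12153, 9511 and 16864, so that both matched or fell short of E118. The site at 254.9 kb, 3.2 kb beyond the 5′ end of Camta1, held 9201 RPM in +DBl6, below 12989 in E117 and 11123 in E118. Their reference bases, in the same layout as above, identify these sites, though not the side of a site on which the reads fell.
leading downstream site, chr4:151013767-151013772: AAGCTTggctttgcagttcagaatctgaag
downstream site at 241.6 kb, chr4:151225862-151225867: AAGCTTagtattaaaaaaattccagagtaa
downstream site beyond Camta1, chr4:151239180-151239185: AAGCTTttccatgctcataccatgttggtc
upstream site at -39.3 kb, chr4:150944988-150944993: AAGCTTggaggtgatttgaagacaggttca
upstream site at -25.9 kb, chr4:150958371-150958376: AAGCTTtcaagcgtaaagacagagcatgca
upstream site at -270.6 kb, chr4:150713667-150713672: AAGCTTcagctattccagcaggagctcgag

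Within 500 kb almost every site was captured, 236 of 240 in +DBl6, 236 in E117 and 235 in E118. Log reads at shared sites there correlated at 0.923 between +DBl6 and E117, 0.94 between +DBl6 and E118 and 0.907 between both +Bl6 libraries (234, 233 and 235 shared sites, which share their mappability and fragment lengths). The site profile of +DBl6 was thus as close to each control as the controls were to each other. From 500 kb to 2 Mb the correlations fell to 0.4, 0.408 and 0.326 (337, 317 and 385 sites).

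The decay with distance was read on each side separately, in 12 log-spaced bins from 20 kb to 2 Mb. It did not follow a straight line on log axes. Upstream the level fell from 2824 RPM per kb at 20 to 29.36 kb to 116.4 at 63.25 to 92.83 kb in +DBl6, a bin with 5 sites, and then stayed at 673.4 to 806 from 92.83 to 430.9 kb. It fell to 33.49 at 632.5 to 928.3 kb, past the 3′ end of Camta1, and to 6.086 in the last bin. In +Bl6 the bin at 293.6 to 430.9 kb stood at 713.7 (E117) and 745.3 (E118) and that at 632.5 to 928.3 kb at 35.42 and 32.41. +DBl6 lay above both +Bl6 libraries in 5 of the 12 upstream bins and below both in 2. It lay above all 4 controls in the first bin and in the bin that holds the 3′ end of Camta1, 430.9 to 632.5 kb, where it stood at 431.9 against 365.8 and 327.2 in +Bl6 and 298 and 281.8 in +129. It lay below all 4 in the last 2 bins, beyond 928.3 kb.

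Downstream the plateau was shorter and slightly higher, with 1009, 1087 and 1061 RPM per kb in the 3 bins from 92.83 to 293.6 kb in +DBl6. It gave way to 121.3 at 293.6 to 430.9 kb and to 22.01 at 430.9 to 632.5 kb. From there to 2 Mb the downstream level was flat, at 19.59 to 26.23 in +DBl6, 16.32 to 32.88 in E117 and 20.41 to 25.8 in E118, whereas upstream it kept falling. In the last bin, 1363 to 2000 kb, the downstream level of +DBl6 was 22.65 and the upstream level 6.086, and in E118 the values were 25.8 and 7.929. That side difference was present in all libraries. Against the +Bl6 libraries, +DBl6 lay above both in 4 of the 11 downstream bins with reads and below both in 5.

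A single exponent was fitted to each side as a summary. Upstream it was -1.217 (SE 0.2743, 12 bins) in +DBl6, against -1.0993 and -1.1743 in +Bl6, with a mean of -1.137 ± 0.05307 (SD, n = 2), and -1.1616 and -1.1983 in +129. Downstream it was -1.3742 (SE 0.242, 11 bins with reads) in +DBl6, against -1.2605 and -1.3329 in +Bl6, with a mean of -1.297 ± 0.05122 (SD, n = 2), and -1.2714 and -1.3074 in +129. The +DBl6 exponent was the steepest of the 5 on both sides. The differences from the +Bl6 mean, -0.08018 and -0.07749, were well inside the SE of each single fit. The upstream difference changed sign, to 0.04466, when the distances were limited to 50 kb to 1 Mb. The downstream one shrank to -0.008882 when the reads of a site were capped at 0.1% of the library.

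**Figure D3:**
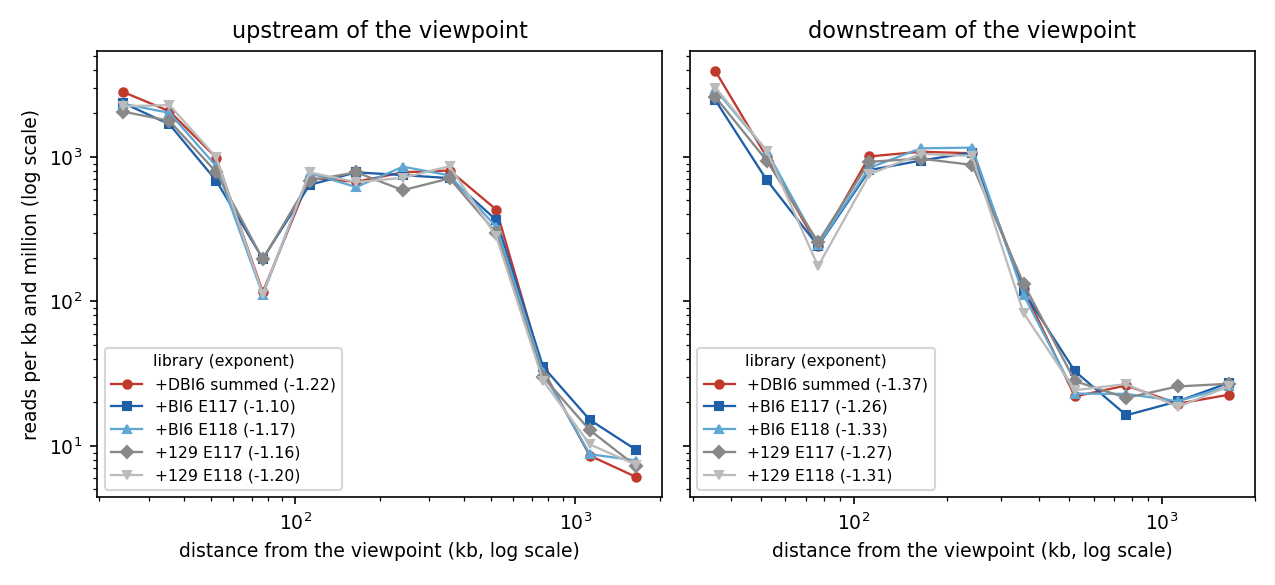
RPM per kb against distance from the viewpoint, both on log scales, upstream (left) and downstream (right), for the same 5 libraries, with each library's fitted exponent in the legend. All libraries show a dip in the bin from 63.25 to 92.83 kb, a plateau out to the end of Camta1 and a steep fall there, with exponents of -1.22 to -1.10 upstream and -1.37 to -1.26 downstream.

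By distance, +DBl6 held a larger share of its reads nearby and a smaller share far away. Within 500 kb lay 69.21% of its reads (Wilson 95% interval 69.1 to 69.32), against 62.45% in E117 and 66.56% in E118, and 59.97% and 64.76% in +129. Beyond 2 Mb lay 21.37% (21.28 to 21.47), against 28.75% and 24.96% in +Bl6 and 31.72% and 27.46% in +129. Between 500 kb and 2 Mb it held 9.416%, against 8.801% and 8.475%. The +DBl6 value was outside the range of the 4 control libraries, which are those of lines E117 and E118, in each of these 3 zones. The intervals cover counting error only, since reads carry no molecular identifiers, and are much narrower than the gap between E117 and E118.

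The larger nearby share went with a smaller number of captured distal sites. Beyond 2 Mb +DBl6 captured 2406 of 47274 sites (5.089%), against 4085 (8.641%) in E117 and 4029 (8.523%) in E118. It had 61.85 reads per captured distal site, against 19.98 and 15.33. Counted as captured sites, 7.692% of the +DBl6 contacts lay within 500 kb, against 4.871% and 4.943%. Almost every site within 500 kb was captured in all 3 libraries, so this share follows from the number of sites captured farther away. How far the number of captured molecules contributes to the difference in shares was not tested.

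**Figure D4:**
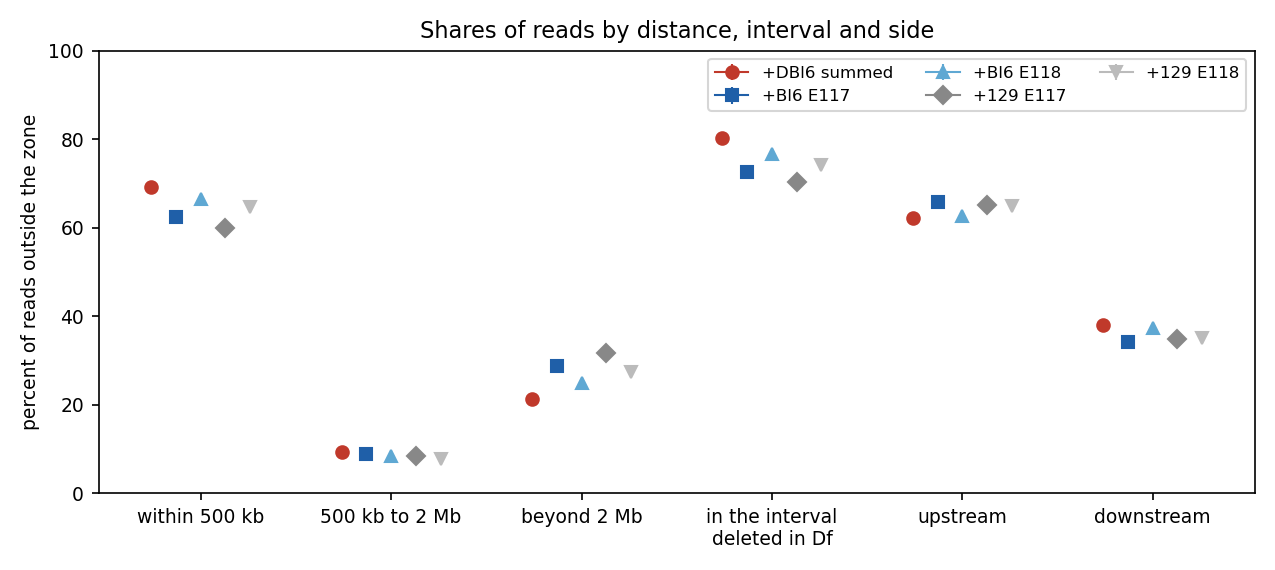
Percent of reads outside the viewpoint zone by distance, in the interval deleted on Df, and by side, for the same 5 libraries. Points are single libraries, and their Wilson 95% intervals are smaller than the symbols. +DBl6 is highest within 500 kb (69.21%) and in the interval (80.26%), and lowest beyond 2 Mb (21.37%).

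The interval that is missing from Df held 80.26% of the +DBl6 reads, against 72.66% and 76.57% in +Bl6 and 70.44% and 74.19% in +129. The excess lay in its first block. From the start of the interval to the 5′ end of Camta1, +DBl6 held 69.53%, against 60.76% in E117 and 64.45% in E118. From there to the end of Nphp4, the gene of a ciliary protein, it held 6.023%, below 6.632% and 7.18%. In the block just beyond Nphp4 it held 2.818%, below 3.406% and 3.319%. In the last block, up to the end of the interval, it held 1.891%, just above 1.857% and 1.628%, and below 2.309% and 2.061% in +129. The flank upstream of the interval took 18.83% of +DBl6 reads, against 26.25% and 22.49%, and the flank downstream of it took 0.9099%, against 1.09% and 0.9394%. Both flanks were thus lower in +DBl6 than in either +Bl6 library.

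The split between sides differed less. Upstream lay 62.1% of +DBl6 reads, against 65.75% in E117 and 62.61% in E118, and 65.17% and 64.9% in +129. E118 lay within 1 point of +DBl6. Within 500 kb, 37.95% of all +DBl6 reads were upstream and 31.27% downstream, against 35.33% and 27.12% in E117 and 35.98% and 30.58% in E118. The share of +DBl6 was therefore higher than in both +Bl6 libraries on both sides of the viewpoint at short range.

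Genes within 500 kb were read as RPM per kb of gene body. Of the 9 protein-coding genes there, 8 contain a HindIII site, and +DBl6 lay above both +Bl6 libraries at 3, between them at 1 and below both at 4. Camta1 stood at 845.4 in +DBl6, 732.6 in E117 and 780.5 in E118. Dnajc11, a mitochondrial DnaJ-family protein, stood at 250, 176.6 and 176.2, but at 284.6 and 155 in +129, so the controls of the other strain spanned the +DBl6 value. Nol9, a nucleolar kinase of rRNA processing, stood at 39.18, 8.74 and 18.4 on 2 sites. Dnajc11 and Nol9 were the remaining genes above both. Thap3, a THAP-domain protein, has no site.

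The genes below both +Bl6 libraries all lay 379.4 to 462.3 kb downstream, a stretch that also holds Nol9 (429.1 kb) and Tas1r1 (417.7 kb). Phf13, a PHD-finger chromatin reader, stood at 89.3 in +DBl6, 494.6 in E117 and 363.4 in E118, but at 41.85 and 122.7 in +129, which enclose the +DBl6 value. Klhl21, an adaptor of a ubiquitin ligase, stood at 25.4, 80.57 and 56.89 on 1 site. Plekhg5 stood at 14.39, 61.68 and 37.39, on 10 sites. Zbtb48, a telomere-binding zinc-finger protein, stood at 0.5455, 4.908 and 4.604 on 1 site, with only 3 reads in +DBl6, 11 in E117 and 9 in E118. Klhl21, Plekhg5 and Zbtb48 were also below both +129 libraries. Tas1r1, a taste receptor subunit, lay between at 4.044, 11.57 and 0.3792 on 1 site. The window over Plekhg5 and Espn, chr4:151440001-151520000, held 978 RPM in +DBl6 against 4059 and 2238, with a log2 fold change of -1.26 (SE 0.75, edgeR adjusted p 0.349).

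Beyond 500 kb the genes that border the 3′ side were mixed. Errfi1, a feedback inhibitor of ERBB receptors, stood at 117.5 in +DBl6, 72.24 in E117 and 45.87 in E118, above 71.28 and 83.81 in +129 as well, on 9 sites of which +DBl6 captured 3. Tnfrsf9, a T-cell costimulatory receptor, stood at 84.51, 104.2 and 141.9, and Per3, a period circadian protein, at 37.5, 64.69 and 49.35, both below both +Bl6 libraries. Park7, the redox protein DJ-1, stood at 2.49, 12.62 and 21.48. Vamp3, a vesicle SNARE, lay between at 56.7, 55.84 and 61. Over all 42 protein-coding genes within 2 Mb, 36 contain a site, and +DBl6 was above both +Bl6 libraries at 11, between at 10 and below both at 15. These counts were not tested.

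Far from the viewpoint, +DBl6 held reads in fewer windows. Beyond 2 Mb, 688 of 1895 windows of 80 kb had at least 10 reads in +DBl6, against 910 in E117 and 813 in E118, although the summed library was the deepest. In 372 windows all 3 had at least 10 reads, 342 of them upstream and 30 downstream. Of the 765 distal windows tested, +DBl6 was above both +Bl6 libraries in 193 and below both in 373, and it had no read in 147. Those 147 were all of the windows tested without a +DBl6 read, which make up 18% of the 815. These counts lean on the same filter. Among the 1285 distal windows with 10 or more reads in any of the 3 C57Bl/6J libraries, +DBl6 was above both in 307 and below both in 553, and 429 held no read in +DBl6, 184 in E117 and 199 in E118. Zone by zone, the share of sites captured was lower in +DBl6 in each part of the upstream arm, from 1.443% against 3.045% and 2.798% at 0 to 50 Mb of the chromosome to 17.18% against 24.55% and 24.1% at 140 to 149 Mb.

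At the scale of 1 Mb the distal profiles ran alike. Over 149 bins of 1 Mb, the Spearman correlation of reads was 0.773 between +DBl6 and E117, 0.781 between +DBl6 and E118, and 0.818 between both +Bl6 libraries. These bins share their number of sites and their distance from the viewpoint, so the values are descriptions. Bins with more protein-coding genes held more reads, with a Spearman correlation of 0.548 in +DBl6, 0.59 in E117 and 0.609 in E118. At the scale of single sites the profiles did not run alike, and log reads at shared distal sites correlated at 0.0585 between +DBl6 and E117 (731 sites) and 0.0748 between +DBl6 and E118 (714 sites).

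The strongest distal targets were ranked by the lowest of the 3 levels. First was chr4:153840001-153920000 in Prdm16, a transcription regulator of brown fat, 2896 kb downstream, with 3852 RPM in +DBl6, 2371 in E117 and 1984 in E118 and 1899 and 1125 in +129. It was above all controls, with a log2 fold change of 1.23 (SE 0.66, edgeR adjusted p 0.307). Around 2256 to 2576 kb downstream lay a window without a protein-coding gene (1973, 1751 and 3269 RPM), a window over Dffb, a DNase of apoptosis, A430005L14Rik and BC046331 (2394, 2449 and 1442 RPM), and a window over Megf6, Tprgl and Wdr8 (1495, 1004 and 1160 RPM). The first pair of these lay between the +Bl6 libraries. The window over B3galt6, a galactosyltransferase of proteoglycan synthesis, Sdf4, Tnfrsf18, Tnfrsf4 and Ttll10, 4416 kb downstream, held 986.6, 1018 and 997.9 RPM, the closest match of the 10. That match rested on 1 site, which gave 565 of 687 reads in +DBl6, 156 of 289 in E117 and 31 of 247 in E118. Without it the levels were 175.2, 468.7 and 872.7 RPM.

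Upstream, 3 adjoining windows from 147440001 to 147680000 held Fbxo6, Mad2l2, a subunit of DNA polymerase zeta, Agtrap and 2610109H07Rik (1718 RPM in +DBl6, 1779 in E117 and 1996 in E118), Fbxo2, Fbxo44 and Fbxo6, which encode F-box proteins (1347, 2491 and 3333 RPM), and Ptchd2 (2113, 1656 and 2618 RPM). Farther windows lay at -11264 kb over Igsf21 (1450, 2128 and 1188 RPM) and at -12784 kb over Vwa5b1 (998.1, 2438 and 1143 RPM). None of the 10 windows was called by edgeR (adjusted p 0.307 to 0.993, all 10 with an unadjusted p above 0.05) or by DESeq2.

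**Figure D5:**
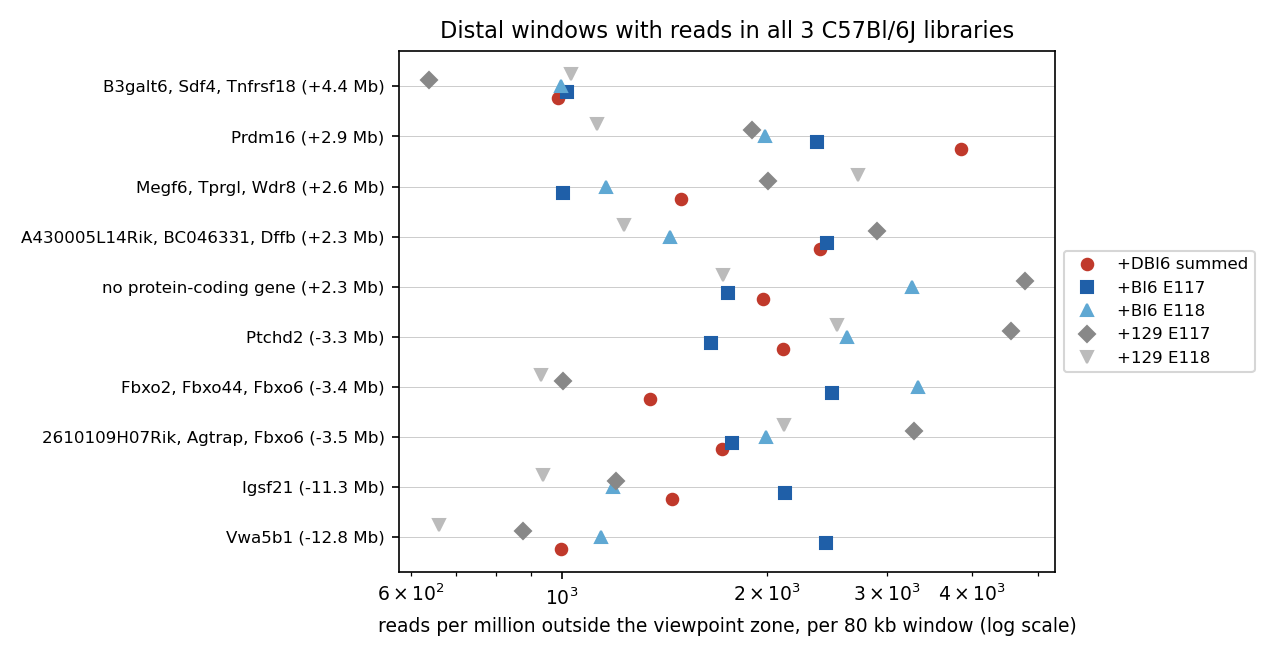
RPM (log scale) in the 10 distal 80 kb windows with the highest minimum over the 3 C57Bl/6J libraries, ordered by distance from the viewpoint, with +129 beside them. In 1 window, over Prdm16, +DBl6 (3852 RPM) lies above all 4 controls, and in the window over B3galt6 all C57Bl/6J libraries lie between 986.6 and 1018. Both placings rest on the leading site of the window.

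The same windows were reached through different sites in different libraries. The leading site of the Prdm16 window, in an intron, had 1095 reads in +DBl6, 0 in E117 and 0 in E118. That of the Dffb window, in an intron, had 1005, 0 and 0. That of the Mad2l2 window, in an intron, had 0, 154 and 165, the reverse pattern. The site of the Fbxo2 window was read in all 3, with 371, 263 and 158. In the Prdm16 window +DBl6 captured 20 of 26 sites, E117 12 and E118 18, and without the leading site the levels were 2279, 2371 and 1984 RPM, so that its place above all controls rested on that site. Without its leading site the Dffb window held less in +DBl6 than in both +Bl6 libraries (950.7, 2449 and 1442 RPM). The Mad2l2 window moved the other way, to above both (1718, 1237 and 1329 RPM). Their reference bases are shown because they identify these sites, though not the side of the site on which the reads fell.
Prdm16 site, chr4:153890653-153890658: AAGCTTggaaccagccaaacatcctaatcc
Dffb site, chr4:153348566-153348571: AAGCTTttggcattcagagcctttaaccag
Fbxo2 window site, chr4:147595433-147595438: AAGCTTggcccagaagctcgtgcttgctct
B3galt6 site, chr4:155364777-155364782: AAGCTTtaaaagtcatgtctgttcagaaac

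The 2 windows called were distal, lower in +DBl6 and without a single +DBl6 read. They entered the test through the control libraries alone, and with no minimum beyond 1 read edgeR called 2 higher and 2 lower windows. The window chr4:142160001-142240000, without a protein-coding gene, at -8784 kb, held 0 reads on 0 of 23 sites in +DBl6, 513 reads on 13 sites in E117 and 116 on 4 in E118. In RPM these are 0, 1808 and 468.7, and +129 held 1798 and 250.1. Set against a floor of 3 counts in the summed library, the +Bl6 mean was 264.2-fold higher (edgeR adjusted p 0.0464). The fold was 419.6 for E117 alone and 108.8 for E118 alone. The window chr4:140240001-140320000 over Padi4 and Padi6, which encode peptidyl-arginine deiminases, and Rcc2, at -10704 kb, held 0 reads on 0 of 18 sites in +DBl6, 161 reads on 8 sites in E117 and 348 on 11 in E118. Against the same floor the +Bl6 mean was 229.0-fold higher (edgeR adjusted p 0.0464). The fold was 131.7 for E117 alone and 326.3 for E118 alone, and +129 held 773.1 and 308.2 RPM. These folds take reads as independent counts. The summed +DBl6 library held 61.85 reads per captured site beyond 2 Mb, so they are not lower bounds on the difference in contacts. In E117 a single site gave 355 of the 513 reads of the first window, and it had 0 reads in E118.

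Other windows had no +DBl6 read either, and these 2 stood out by their level in the controls. The next window by p, chr4:118240001-118320000 over Ebna1bp2 and Wdr65, held 0, 630.8 and 408.1 RPM (edgeR adjusted p 0.13). With only 1 of the +DBl6 files, without +Bl6 of E117, or with the reads of a site capped, edgeR called 0 windows. With captured sites in place of reads it also called 0, but only 79 windows had enough captured sites to be tested. Neither of these 2 windows was among them, so that setting says nothing about them. Without +Bl6 of E118 it called 4, 3 higher and 1 lower, of which 1 was among these 2, and DESeq2 called 110, 11 higher and 99 lower, with both of these among them. On counts simulated with the mean level of each window and 1 common dispersion (0.9309) for all windows, 0% of 16-fold changes were called. Windows were not simulated with their own spread, so this share does not carry over to single windows such as those over Camta1.

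The windows with the smallest p in the higher direction were not called. The window chr4:13840001-13920000, without a protein-coding gene, held 1202 RPM in +DBl6, 0 in E117 and 4.04 in E118 (edgeR adjusted p 0.0598), and all 837 +DBl6 reads fell on 1 site. The viewpoint's own window had the next p, followed by chr4:116000001-116080000 over Mast2, a microtubule-associated kinase (676.4, 0 and 16.16 RPM, edgeR adjusted p 0.225), with 456 of its 471 reads on 1 site and 600.9 and 201 RPM in +129.

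Contacts were also read from the other viewpoints of the same chromosomes, in the 40 kb on each side of the partner. Of the 11 partners, +DBl6 received more than both +Bl6 libraries at 4, a level between them at 3 and less than both at 4, and its place was the same in the opposite direction at 3. These counts were not tested. They include viewpoint 10, whose +Bl6 library of E117 held only 391 reads outside its zone. Viewpoint 3, at -554.6 kb in Vamp3 beside the 3′ end of Camta1, received 37714 RPM from the Camta1 viewpoint in +DBl6, 22940 in E117 and 24440 in E118. In the opposite direction, viewpoint 3 gave 8716 RPM to the Camta1 viewpoint in +DBl6 (10507 in E71 and 7900 in E98), between 5847 in E117 and 12772 in E118. The 2 directions did not read the same contacts. The 40 kb beside viewpoint 3 reached into Camta1, whose first 20 kb held 10314 RPM in +DBl6 and whose next 20 kb held 22027. The site of viewpoint 3 itself held 185.3 RPM in +DBl6, 222 in E117 and 266.7 in E118. The opposite direction starts beside that site, so it cannot show whether the higher level inside Camta1 is seen from the other end. Viewpoint 5, 626.9 kb downstream, received 1099 RPM in +DBl6, 888 in E117 and 424.2 in E118, and gave 1245 (1672 in E71 and 1108 in E98) against 1116 and 1977. Viewpoint 1, at -3023 kb, received 48.83 RPM in +DBl6 (8.44 in E71 and 90.95 in E98), 1325 in E117 and 1091 in E118. It gave 157.5 in +DBl6, 326.3 in E117 and 637.4 in E118, but the +DBl6 lines differed, with 404.5 in E71, above E117, and 141.2 in E98. Viewpoint 9, 2444 kb downstream, received 488.3 RPM in +DBl6, below 1779 in E117 and 808.1 in E118, and gave 3606 (1891 in E71 and 3773 in E98), above 815.1 and 814.3. The +Bl6 files of viewpoint 9 shared 5143 captured sites beyond 2 Mb (80.78% and 87.9% of each), with a correlation of log reads of 0.9475, so they are not separate measurements. At viewpoints 6 to 8 the same correlation between the +DBl6 files was 0.9668, 0.9713 and 0.9622, and at viewpoints 1, 3 and 5 it was 0.2117, 0.2884 and 0.315.

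The authors deposited 347 regions of differential contact between +DBl6 and +Bl6 for this viewpoint, with a median length of 33 kb and a total of 12.33 Mb. They were chosen on these libraries, so reads inside them are a description. Only 2 lay within 500 kb of the viewpoint and 17 between 500 kb and 2 Mb, while 328 lay beyond 2 Mb. Of all regions, 67 lay before the first HindIII site of the chromosome and 84 held no site. Of the 252 with reads in any of the 3 libraries, +DBl6 was above both +Bl6 libraries in 108, below both in 86 and between in 58. The 1 region inside Camta1, chr4:150626000-150688000, held 47858 RPM in +DBl6, 31661 in E117 and 41974 in E118. The region over Espn, Plekhg5 and Tnfrsf25, chr4:151470000-151528000, held 1038, 3376 and 1721 RPM, and the region in Ajap1, chr4:152847000-152867000, held 84.73, 1790 and 614.1.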

How the data were processed

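PE-4Cseq libraries were read as deposited raw read counts per HindIII position of chromosome 4. Per the authors' methods, the viewpoint read gave the allele, the partner read was trimmed to 30 bp and aligned with bowtie (version not given in the sources used here) to HindIII fragments of mm9 with up to 3 mismatches, and unique matches were counted. All 48319 HindIII sites of the NCBIM37 reference matched the listed positions. Reads were present mostly where sequence beside a listed position is unique, so positions were taken as HindIII sites, not as whole fragments as first assumed in the design. DNA was purified with a column kit for E71 and E117 and with beads for E98 and E118.

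Distances were counted from the viewpoint site and reads within 20 kb left out. The quasi-likelihood test of edgeR 4.0.16 (R 4.3.3, TMM scaling, Benjamini-Hochberg adjustment, threshold 0.05) was run on 80 kb windows that held 10 or more reads in 50% or more of 5 libraries (summed +DBl6, +Bl6 and +129 of E117 and E118). DESeq2 1.42.0 was an alternative. The +DBl6 arm is 1 library, so its spread is assumed to be that of the controls. The +Bl6 and +129 libraries of a line come from the same cells and were fitted without a term for line. The fit was tested on counts simulated with 1 common dispersion for all windows. Of 200 changed windows it called 0% at 4-fold and 0% at 16-fold, while unchanged windows had an unadjusted p under 0.05 in 4.69% and 3.18% of cases. Wilson intervals are at 95% confidence and, like the floor of 3 counts, cover counting error only. The interval deleted on Df was located from Df and +129 reads of viewpoints 1, 2, 11 and 12.

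Named windows were the 10 with the highest mean RPM, the 10 leading distal windows with at least 10 reads in all 3 C57Bl/6J libraries, and the 3 with the smallest p in each direction. Named sites were the 5 strongest per side and the leading site of each distal window. Named genes were the protein-coding genes in named windows and within 500 kb. Sites beside the ends of Camta1, some genes and regions outside 500 kb, and the reciprocal viewpoints described were chosen after their values were seen. Members, lists and rules were chosen with earlier results of these data known. The deposited table of regions gives only where each region starts and ends. Deposited files of the other viewpoints were used only for the interval and for reciprocal contacts.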

Additional observations from a re-analysis of the deposited data

Results flagged for a closer look

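The Df libraries of this viewpoint take no part in the comparison, because the viewpoint lies inside the deletion and its sequence is absent from that chromosome. They nevertheless held reads, 1116 in line E71 and 1064 in line E98. These were 0.2652% (Wilson 95% interval 0.2501 to 0.2812) and 0.2665% (0.251 to 0.283) of the reads of both alleles in these lines, against 45.53% and 47.28% in E117 and E118. By distance they resembled the +DBl6 reads in 1 respect, with 14.695% and 14.944% of them within 20 kb of the viewpoint, against 15.314% and 14.384% in +DBl6 of the same lines. The source of these reads was not tested.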

How the results depend on the processing

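The number of windows called depended on the treatment of reads and libraries. Against 2 windows (both lower), DESeq2 called 110, 11 higher and 99 lower, and 16 windows had no adjusted p there. Without a minimum beyond 1 read the count was 4 (2 higher and 2 lower), with 40 kb windows 0, with C57Bl/6J libraries only 6 (1 higher and 5 lower), with captured sites 0 and with capped reads 0. Leaving out 1 library at a time gave 0 to 4, namely 0 without either +DBl6 file or +Bl6 of E117, and 4 (3 higher and 1 lower) without +Bl6 of E118. With 160 kb windows the count stayed at 2, but both were higher in +DBl6. The purification batch pairs E71 with E117 and E98 with E118. With E71 and E98 as separate libraries, which counts shared molecules as replicates, 62 windows (10 higher and 52 lower) were called without a replicate block and 124 (35 higher and 89 lower) with that batch as a block. The remaining settings gave 2 or 3 windows. With captured sites only 79 windows were tested, and neither of the 2 windows called in the main fit was among them. The difference of the upstream exponent, -0.08018, turned to 0.04466 from 50 kb to 1 Mb and ranged from -0.1177 to -0.04265 without 1 library. That of the downstream exponent, -0.07749, was -0.008882 with capped reads, -0.1335 with 8 bins and -0.1137 to -0.04127 without 1 library. The difference in the share upstream, -2.072 points, was -5.623 in captured sites and -3.643 to -0.5009 without 1 library. Differences in the shares within 500 kb (4.707 points), beyond 2 Mb (-5.485) and in the interval (5.642) kept their sign in all settings tried, and ranged from 2.648 to 6.766, -7.382 to -3.589 and 3.683 to 7.601 without 1 library. Counted in captured sites, these shares are set mainly by the number of sites captured beyond 2 Mb, so that setting is not a separate check. Distances from the fragment with the most reads, and positions read as fragments, were alternatives added after seeing the data. The cause of these dependences was not tested.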
